A study of Mus musculus with 416 samples.

Results

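The genes described here are 10 genes by which resting astrocytes are known: Slc1a2, Slc1a3, Aqp4, Gja1, Gjb6, Aldh1l1, Aldoc, S100b, Agt and Sox9. They were chosen by name, as the rows whose Ensembl ID carries one of these symbols, and make up 10 of the 46517 genes in the table. All 10 passed the filter on low counts, among 22968 genes tested. Their RNA was measured by sequencing of ribosomal RNA-depleted total RNA from the striatum, the input nucleus of the basal ganglia, in 416 libraries. All animals were drug-naïve mice of the J:DO stock (Diversity Outbred, an outbred population in which each animal carries its own mix of founder genomes), and the labels give no age. Libraries labelled female numbered 76 in generation 21, 60 in generation 22 and 72 in generation 23, and libraries labelled male numbered 74, 59 and 75 in the same generations. The labels do not separate generation from the cohort, date or handling of the animals, so these cannot be told apart.

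Total counts per library lay between 20331737 and 77458200 (median 43516282), and mitochondrial genes took 2.95% to 7.18% of them. By a low total or a low median correlation with the other libraries, 30 libraries stood apart, 14 in generation 21, 6 in generation 22 and 10 in generation 23. Xist, the RNA of the inactive X chromosome, went against the labelled sex in 29 libraries. The striatal label was checked with 10 markers of spiny projection neurons, whose summed level had a median of 7270, 7100 and 6620 CPM in generations 21, 22 and 23. One generation 21 library held 170.2 CPM for that sum. Results without such libraries are given beside some of the values that rest on them, and the other values are from all libraries.

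Astrocytes tile the grey matter and touch both synapses and vessels. They take up glutamate after release, buffer potassium and water at their endfeet, are coupled into networks by gap junctions, and supply neurons with metabolites. The genes below cover these tasks: uptake (Slc1a2, Slc1a3), water and coupling (Aqp4, Gja1, Gjb6), folate and sugar metabolism (Aldh1l1, Aldoc), secreted or calcium-binding proteins (S100b, Agt) and the transcription factor that sets astrocyte fate (Sox9). Their level in a piece of tissue depends on the number of astrocytes and on the RNA each one holds, and bulk RNA cannot tell fewer cells from less RNA per cell.

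The unit of level is CPM, after TMM factors had adjusted the library totals. Per kilobase of exon, the order of the median levels was Slc1a2 (283.2 CPM per kb), Aldoc (74.4), S100b (42.3), Slc1a3 (32.4), Gja1 (15.8), Aqp4 (8.92), Sox9 (8.69), Aldh1l1 (6.17), Gjb6 (5.71) and Agt (2.4). Slc1a2 stood above Aldoc in 416 of 416 libraries, and Gja1 above Aqp4 likewise. Aqp4 and Sox9 did not separate, since Aqp4 was the higher one in 52.4% of libraries, and Aldh1l1 exceeded Gjb6 in 64.9%. The order of the remaining neighbours held in 86.3% to 99.8% of libraries.

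The members differed widely in how much they varied from library to library. The standard deviation of log2 CPM over the 416 libraries was smallest for Slc1a2 (0.136) and Slc1a3 (0.141), followed by Gja1 (0.177), Aldoc (0.203), Aldh1l1 (0.204) and Sox9 (0.222). It was 0.282 for Aqp4, 0.296 for Gjb6, 0.519 for S100b and 0.697 for Agt. Among all tested genes its median was 0.301, and 0.166 among those averaging 3 or more in log2 CPM. Counting error alone would give 0.107 for Agt, whose median count was 191.5, and 0.00363 for Slc1a2. Generation accounted for 13.4% of the variance of Aldh1l1, 12.2% of Sox9, 11.3% of Agt and 11.2% of Aldoc, but for 0.0286% of that of S100b.

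**Figure D1:**
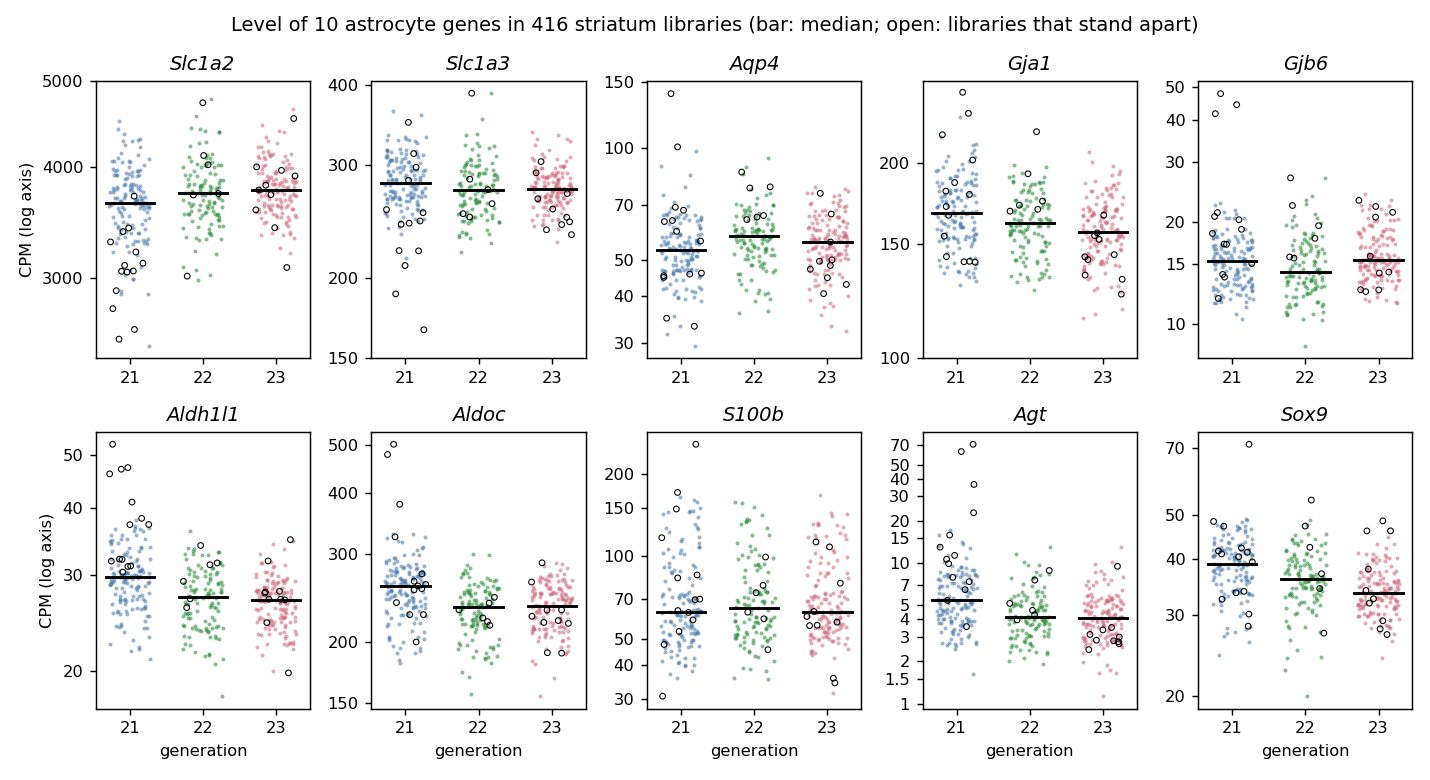
Level of each member in CPM (log axis) in the libraries of generations 21, 22 and 23, 1 point per library, with a bar at the median. Open circles are the 30 libraries that stood apart. The generations overlap for every member, Agt and S100b spread the most, and the highest Agt values (70.3, 62.4 and 36.4 CPM) belong to generation 21 libraries that stood apart.

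The first question was how the members differed between generations. In generation 23 against generation 21, 6 of the 10 members passed the test, Slc1a2 higher and Agt, Sox9, Aldh1l1, Aldoc and Gja1 lower. This test called 58.3% of all genes tested (25.8% higher and 32.6% lower), so that 6 of 10 is near the background. In generation 22 against generation 21, 7 members were called, Slc1a2 and Aqp4 higher and the same 5 names lower, against 46.6% of all genes (22.1% higher and 24.5% lower). In generation 23 against generation 22, Sox9 alone was called, lower, against 18.2% of all genes (8.53% higher and 9.63% lower). The median log2 fold change of the members was -0.08, -0.07 and -0.02 in these comparisons, and that of all genes tested was -0.02, -0.01 and -0.01. The comparisons share libraries, the generation 21 group serving in both of the first, and are therefore not independent of each other. Without the libraries that stood apart, 8 members were called in generation 23 minus 21, with Gjb6 (log2 0.07, adjusted p = 0.0423) added among the higher and Slc1a3 among the lower, against 57.1% of all genes. A call is a Benjamini-Hochberg adjusted p under 0.05 in edgeR's quasi-likelihood test over all genes tested, and every adjusted p of a difference below comes from that test. Each library carries a number of its own in its title, but the labels do not state that these are separate animals, so the p-values measure the spread between these libraries. Replicate numbers below follow accession order within a group.

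**Figure D2:**
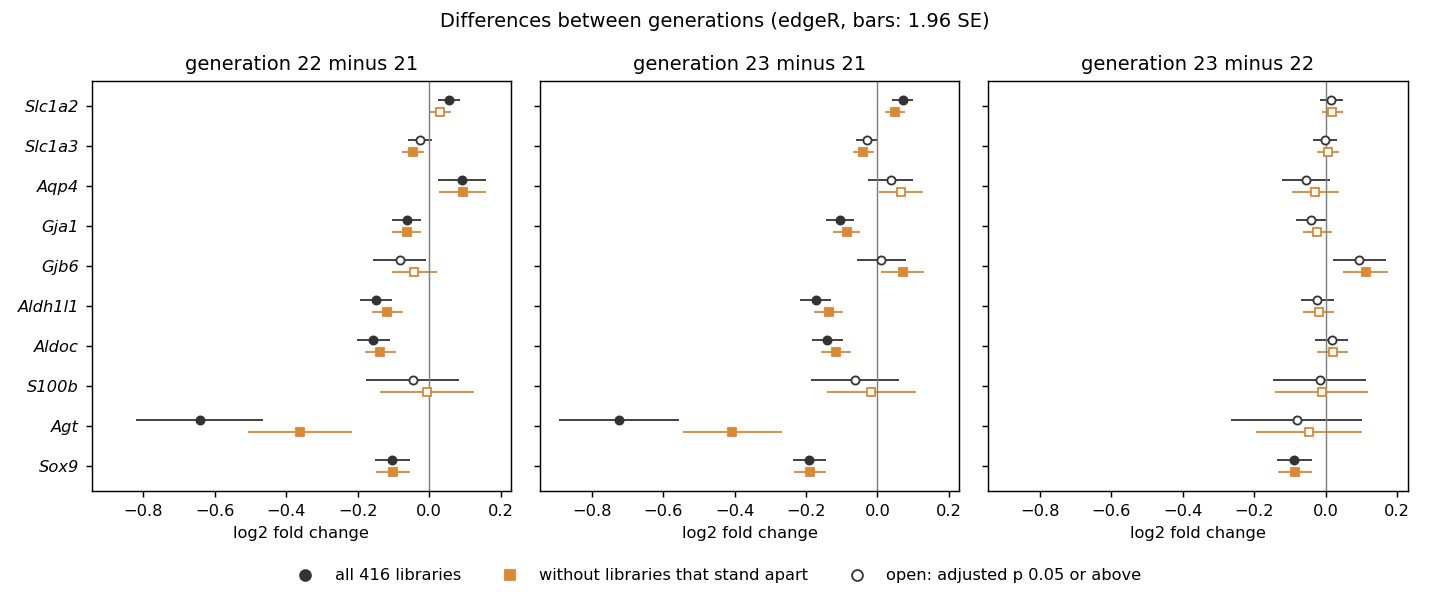
Log2 fold change of each member between generations (x axis, later minus earlier), with bars for 95% intervals. Black circles are all 416 libraries, orange squares leave out the libraries that stood apart, and open symbols did not pass the test. In generation 23 minus 21, Agt lies at -0.41 without those libraries, against -0.72 with all, and Sox9 at -0.19 in both.

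Of the glutamate transporters, Slc1a2, which encodes GLT-1, the main uptake carrier of forebrain astrocytes, was slightly higher in the later generations. It spanned 2510 to 4500 CPM (median 3640) in generation 21, 2980 to 4770 (median 3730) in generation 22 and 3080 to 4650 (median 3770) in generation 23. The ranges overlapped almost wholly, and 30.6% of generation 23 libraries lay below the generation 21 median. The difference of generation 23 minus 21 was 1.05-fold (log2 0.07 ± 0.015 SE, adjusted p = 1.64e-05), and that of generation 22 minus 21 was 1.04-fold (adjusted p = 0.00216). Without the libraries that stood apart, the second difference was no longer called (log2 0.03, adjusted p = 0.1), and in libraries labelled male alone the first was not (log2 0.04, adjusted p = 0.0692). Slc1a3, the GLAST carrier shared by astrocytes and radial glia, spanned 166.1 to 363.6 CPM (median 281.2) in generation 21, 219.7 to 388.4 (median 273.9) in generation 22 and 227.2 to 338.1 (median 275.4) in generation 23. It was not called in any of the 3 comparisons with all libraries, with a log2 difference of -0.03 ± 0.016 SE (adjusted p = 0.115) in generation 23 minus 21. Without the libraries that stood apart it was called lower, at log2 -0.04 (adjusted p = 0.0178), and leaving out replicate 34 of the female generation 21 group was enough for that call (adjusted p = 0.0399). Generation 22 minus 21 was likewise called lower without the libraries that stood apart (log2 -0.05, adjusted p = 0.0114). The left-out replicate held the lowest Slc1a3 level, 166.1 CPM. Part of the Slc1a3 reads could belong to Gm37310, an annotated transcript that overlaps it on the same strand, so its level is uncertain to that extent.

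Of 6 further genes of transmitter clearance, 5 were lower and none higher in generation 23 than in generation 21 (median log2 -0.19). For this and the other gene lists in that comparison, the shares of all genes were 32.6% lower and 25.8% higher. Without the libraries that stood apart the counts of the clearance list were the same, and its median was log2 -0.12. The glycine transporter Slc6a9 was lower by log2 -0.20 ± 0.030 SE (adjusted p = 8.04e-10), the GABA transporter Slc6a11 by -0.29 (adjusted p = 7.52e-09) and the glutamine exporter Slc38a3 by -0.18 (adjusted p = 2.71e-08). Grm3, a glutamate receptor, did not pass (log2 -0.03, adjusted p = 0.185). Of 4 tested relatives in the transporter family, Slc1a4 (log2 -0.10, adjusted p = 1.17e-06) and Slc1a1 (log2 -0.05, adjusted p = 0.00224) were lower, and Slc1a5 and Slc1a6 were not called.

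Aqp4, the water channel of astrocyte endfeet, spanned 29.5 to 139.6 CPM (median 53.3) in generation 21, 36 to 93.6 (median 57.8) in generation 22 and 32.4 to 78.5 (median 56) in generation 23. Generation 22 was higher than generation 21 by 1.07-fold (log2 0.09 ± 0.034 SE, adjusted p = 0.0187), and 29.4% of generation 22 libraries lay below the generation 21 median. The call was lost without the libraries whose Xist went against the label (log2 0.08, adjusted p = 0.0764) and in female-labelled libraries alone (log2 0.06, adjusted p = 0.352). The differences of generation 23 minus 21 (log2 0.04, adjusted p = 0.331) and of generation 23 minus 22 (log2 -0.06, adjusted p = 0.271) were not called. When the 6 marker scores were covariates, generation 23 minus 21 was called higher (log2 0.10, adjusted p = 0.00966).

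Both main connexins of astrocyte gap junctions were measured. Gja1, the more abundant of the pair, spanned 129.6 to 256.9 CPM (median 167.2) in generation 21, 127.3 to 223.4 (median 161.4) in generation 22 and 115.4 to 208.2 (median 156.7) in generation 23. It was lower in generation 23 than in generation 21 by 0.93-fold (log2 -0.10 ± 0.020 SE, adjusted p = 9.74e-07), with 70.7% of libraries below the generation 21 median, and in generation 22 than in generation 21 (log2 -0.06, adjusted p = 0.00796). With the scores of 6 marker lists of other cell types as covariates, neither difference was called (log2 -0.03, adjusted p = 0.163, and log2 -0.02, adjusted p = 0.456). Gjb6, its partner, spanned 10.4 to 47.7 CPM (median 15.4) in generation 21, 8.65 to 27 (median 14.3) in generation 22 and 11.5 to 24.1 (median 15.5) in generation 23. Its lowest median was that of the middle generation, and no generation difference passed with all libraries (generation 22 minus 21, log2 -0.08, adjusted p = 0.0614; generation 23 minus 22, log2 0.09, adjusted p = 0.0681). Both values lay close to the threshold. Generation 23 minus 22 was called without the libraries that stood apart (log2 0.11, adjusted p = 0.00608). It was also called when only replicate 35 of male generation 21, replicate 46 of female generation 22, or replicate 29 or 25 of male generation 22 was left out (adjusted p = 0.0485, 0.0462, 0.0342 and 0.0437). Generation 22 minus 21 was called without any 1 of the last 3 of these or without replicate 4 of male generation 22 (adjusted p = 0.0361, 0.0257, 0.0304 and 0.0483). Whether the change of Gja1 differs from that of Gjb6 was not tested.

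Of 8 other connexins, which serve oligodendrocytes, vessels and neurons, 5 were lower and 1 higher in generation 23 than in generation 21, when 32.6% of all genes were called lower and 25.8% higher. Without the libraries that stood apart, 4 of these connexins were lower and 1 higher. Gjc3, a connexin of oligodendrocytes, was the higher one (log2 0.18, adjusted p = 6.2e-07), while Gja4 of vessels (log2 -0.25, adjusted p = 1.83e-06) and Gjb1 of oligodendrocytes (log2 -0.20, adjusted p = 1.5e-05) were lower. Of 9 genes of ion and water balance at the endfoot, 6 were lower and none higher (median log2 -0.09). Without the libraries that stood apart, 7 of these 9 were lower and 1 higher. Mlc1, a membrane protein of the perivascular endfoot, was lower by log2 -0.17 ± 0.017 SE (adjusted p = 1.26e-19). Dag1, the dystroglycan that anchors Aqp4, was lower by log2 -0.09 (adjusted p = 2.62e-14). Slc4a4, the bicarbonate carrier, and the potassium channel genes Kcnj10 and Kcnj16 were not called.

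The metabolic pair fell in both later generations. Aldh1l1, a folate enzyme widely used to mark astrocytes, spanned 21 to 52.4 CPM (median 29.8) in generation 21, 17.9 to 36.3 (median 27.4) in generation 22 and 19.8 to 34.9 (median 27) in generation 23. Of the generation 23 libraries, 87.1% lay below the generation 21 median. Its difference was log2 -0.17 ± 0.022 SE (0.887-fold, adjusted p = 6.03e-13) in generation 23 minus 21 and log2 -0.15 (adjusted p = 7.53e-09) in generation 22 minus 21. The 5 highest Aldh1l1 values all came from generation 21 libraries that stood apart. Without the libraries that stood apart, the generation 23 minus 21 difference was log2 -0.14 (adjusted p = 1.34e-09). Gm45901 and Gm44236 overlap Aldh1l1 on the same strand, so its reads may be shared with them. Aldoc, the brain form of the glycolytic enzyme aldolase, averaged 258.9 ± 43.3 CPM (SD; highest 500.8) in generation 21, 232.1 ± 28 (156.7 to 300.4) in generation 22 and 234.9 ± 26.2 (155.1 to 288.5) in generation 23. It was lower by log2 -0.14 ± 0.022 SE (0.907-fold, adjusted p = 4.45e-09) in generation 23 minus 21 and by log2 -0.16 (adjusted p = 1.1e-09) in generation 22 minus 21. Neither gene was called between generations 23 and 22.

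Of 14 further genes of astrocyte metabolism and lipid handling, 10 were lower and 1 higher in generation 23 than in generation 21 (median log2 -0.15). Apoe, the main lipid carrier of the brain, was lower by log2 -0.22 ± 0.019 SE (adjusted p = 4.14e-25), Ndrg2 by -0.18 (adjusted p = 6.57e-21) and the metallothionein Mt1 by -0.30 (adjusted p = 1.55e-16). Acsl6, an acyl-CoA synthetase that neurons also express, was the higher one (log2 0.07, adjusted p = 8.83e-07), named after its value was seen. Pla2g7, Ppp1r3c and Fabp7 were not called. Aldoa, the general aldolase, was lower as well (log2 -0.12, adjusted p = 1.28e-18).

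Agt encodes angiotensinogen, the secreted precursor of angiotensin, which astrocytes make in brain. It was the least abundant member and had the largest generation difference of the 10. It spanned 1.64 to 70.3 CPM (median 5.44) in generation 21, 1.92 to 13.1 (median 4.13) in generation 22 and 1.13 to 13 (median 4.1) in generation 23. Of the generation 23 libraries, 78.9% lay below the generation 21 median. The difference was log2 -0.72 ± 0.086 SE (0.606-fold, adjusted p = 1.02e-14) in generation 23 minus 21 and log2 -0.64 (0.641-fold, adjusted p = 1.27e-10) in generation 22 minus 21. The highest values were 70.3, 62.4, 36.4 and 22.9 CPM, all in generation 21 libraries that stood apart. In the first 3 of these Prkcd, which encodes a protein kinase C and is abundant in thalamus, stood at 1350, 533.7 and 916.6 CPM. The summed level of the 7 thalamic markers had a median of 60.5, 59.9 and 57.6 CPM in generations 21, 22 and 23 and reached at most 2590, 100.8 and 229.6 CPM. All 7 were called lower in generation 23 than in generation 21 with all libraries (median log2 -0.60), but 1 was lower and 1 higher without the libraries that stood apart (median log2 -0.06). No marker of that list stood at 0 in a whole generation. Without the libraries that stood apart, the Agt medians were 5.23, 4.06 and 4.16 CPM in generations 21, 22 and 23, and the difference was log2 -0.41 (adjusted p = 1.06e-07) in generation 23 minus 21 and log2 -0.36 in generation 22 minus 21. With the scores of 6 marker lists, thalamic included, as covariates it was log2 -0.38 (adjusted p = 2.32e-06). Beyond that fit, the part that thalamic tissue plays in the remaining difference was not tested. Of 8 tested genes of the renin-angiotensin system, Lnpep, an angiotensin-binding aminopeptidase (log2 0.11, adjusted p = 4.37e-14), and the receptor gene Agtr1a (log2 0.19, adjusted p = 0.0153) were higher in generation 23 than in generation 21. None was lower with all libraries (median log2 -0.009). Without the libraries that stood apart, 2 of these 8 were higher and 1 lower (median log2 0.09).

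S100b, a calcium-binding protein of astrocytes and some oligodendrocytes, varied widely among libraries and was not called in any generation comparison. It spanned 30.8 to 257.2 CPM (median 62.8) in generation 21, 35.6 to 157.8 (median 64.6) in generation 22 and 31.6 to 167.2 (median 62.7) in generation 23. Levels above 100 CPM, a limit chosen after the values were seen, occurred in 20%, 15.1% and 15% of the libraries of these generations, 70 of 416 in all. The upper tail was present in every generation, with a skewness of log2 CPM of 0.684. The difference of generation 23 minus 21 was log2 -0.06 with a 95% interval of -0.19 to 0.06 (adjusted p = 0.393), and without the libraries that stood apart it was log2 -0.02. Dip2a overlaps S100b on the other strand, as Gm13872 does Slc1a2 and Gm15756 does Aldh1l1. The library kit marks strand, but whether the counting used it is not given. Among relatives of the members, S100a1 (log2 -0.25, adjusted p = 2.87e-23) and S100a16 (log2 -0.24, adjusted p = 2.21e-22) of the same calcium-binding family were lower in generation 23 than in generation 21. Over the 13 relatives listed, 7 were lower, none higher and 6 not called, and among all genes 58.3% were called (32.6% lower), so the number called is near the background. Without the libraries that stood apart, 7 of the relatives were lower and 1 higher.

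RefSeq promoter windows of 300 bases on GRCm38.p6, 250 before and 50 from the transcription start on, were found for 8 of the members. They are shown for Agt and S100b because these had the widest spread among the libraries, and for Gja1 because its median rho with the other members was the highest (0.318). Capitals mark TATAAA on the forward strand and TTGGC or its reverse GCCAA, the half-site letters of nuclear factor I. The lines run 5′ to 3′ along the transcribed strand.
Agt (chr8:124569657-124569956, minus strand): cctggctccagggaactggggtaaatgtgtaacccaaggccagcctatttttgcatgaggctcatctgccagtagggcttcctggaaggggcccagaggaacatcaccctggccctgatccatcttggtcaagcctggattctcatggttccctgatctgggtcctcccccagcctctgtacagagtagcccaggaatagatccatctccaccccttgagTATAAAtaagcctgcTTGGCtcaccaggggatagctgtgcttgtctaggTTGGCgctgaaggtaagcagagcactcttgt
S100b (chr10:76253586-76253885, plus strand): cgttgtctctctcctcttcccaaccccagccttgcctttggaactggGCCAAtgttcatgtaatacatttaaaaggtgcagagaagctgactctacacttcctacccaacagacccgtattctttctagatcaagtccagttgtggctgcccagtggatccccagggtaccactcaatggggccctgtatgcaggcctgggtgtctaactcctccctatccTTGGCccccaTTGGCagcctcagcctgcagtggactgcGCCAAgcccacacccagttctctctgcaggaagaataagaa
Gja1 (chr10:56377050-56377349, plus strand): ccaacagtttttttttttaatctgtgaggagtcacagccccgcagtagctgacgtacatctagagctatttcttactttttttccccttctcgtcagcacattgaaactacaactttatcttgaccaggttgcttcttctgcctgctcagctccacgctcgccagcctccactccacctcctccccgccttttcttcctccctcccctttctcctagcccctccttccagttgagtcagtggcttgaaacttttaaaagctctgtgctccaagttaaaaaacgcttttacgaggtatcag
With the first transcribed base counted as 1, Agt held TATAAA at -30 and the NFI letters at -15 and 20. S100b held the NFI letters at -203, -29, -19 and 10 and no TATAAA, and Gja1 held neither. TATAAA was found in 8.32% of 32851 mouse promoter windows of the same length and the NFI letters in 46.7%, so a match to the second is common. ACAAT or ATTGT, the core letters of SOX factors, occurred in 1 window each of Slc1a3 and Aldoc and in 31% of all windows. The glucocorticoid response element, searched as a palindrome of 2 half-sites, occurred in none of the 9 member windows and in 0.475% of all. No searched motifs overlapped in these windows, and a match is a run of letters, not a binding site.

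Sox9, the transcription factor that gives and keeps astrocyte identity, also acts in ependymal cells and in stem cells of the ventricle wall. It was the one member called in all 3 generation comparisons with all libraries. It spanned 24.6 to 71.4 CPM (median 39) in generation 21, 19.9 to 53.8 (median 36) in generation 22 and 24.2 to 48.4 (median 33.7) in generation 23. Of the generation 23 libraries, 85.7% lay below the generation 21 median. The difference was log2 -0.19 ± 0.024 SE (0.876-fold, adjusted p = 1.08e-13) in generation 23 minus 21, log2 -0.10 (adjusted p = 0.000219) in generation 22 minus 21 and log2 -0.09 (adjusted p = 0.00674) in generation 23 minus 22. In male-labelled libraries alone generation 22 minus 21 was not called (log2 -0.08, adjusted p = 0.0821). Generation 23 minus 22 was not called in female-labelled (log2 -0.07, adjusted p = 0.226) or male-labelled libraries alone (log2 -0.10, adjusted p = 0.0662). All 6 ependymal markers were also lower in generation 23 than in generation 21, among them Rarres2 (log2 -0.34, adjusted p = 6.71e-12) and Tmem212 (log2 -0.55, adjusted p = 1.07e-11). The summed level of the 6 spanned 6.96 to 131.2 CPM in generation 21, 10 to 65.6 in generation 22 and 8.66 to 57.9 in generation 23, and none was at 0 throughout a generation. With the scores of 6 marker lists, ependymal included, as covariates the Sox9 difference was log2 -0.08 (adjusted p = 0.000179) in generation 23 minus 21 and was not called in generation 23 minus 22 (log2 -0.02, adjusted p = 0.524).

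The other transcription factors of astrocytes split. Of 10, 6 were lower and 3 higher in generation 23 than in generation 21. The nuclear factor I genes Nfib (log2 0.28 ± 0.036 SE, adjusted p = 1.81e-13), Nfia (log2 0.15, adjusted p = 2.09e-11) and Nfix (log2 0.09, adjusted p = 0.0362), which many neurons express too, were the 3 higher ones, Nfix being named after its value was seen. Rfx4, a factor of ependymal and astrocyte development, was among the lower (log2 -0.13, adjusted p = 2.82e-10). Zbtb20, another factor of astrocyte development, was not called (log2 -0.02, adjusted p = 0.574). Of 14 genes of receptors and secreted proteins, 7 were lower and 3 higher. The receptor genes Gpr37l1 (log2 -0.20, adjusted p = 8.83e-20) and Ntsr2 (log2 -0.17, adjusted p = 5.63e-12) and the engulfment ligand gene Mfge8 (log2 -0.23, adjusted p = 8.26e-13) were lower. Sparcl1, Megf10 and Ednrb were not called.

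Over the 5 astrocyte lists together, 34 of 53 genes were lower, 7 higher and 12 not called in generation 23 minus 21, with a median log2 fold change of -0.11. In generation 22 minus 21 the counts were 31 lower, 5 higher and 17 not called, and in generation 23 minus 22 they were 6, 4 and 43. These shares stand beside 32.6%, 24.5% and 9.63% of all genes called lower in the same comparisons. Markers of neurons moved too. Of 8 genes of cortical excitatory neurons, 6 were higher and none lower in generation 23 than in generation 21, and their summed level had a median of 43.6, 54.8 and 180 CPM in generations 21, 22 and 23. Of 10 markers of spiny projection neurons, 6 were lower and none higher. Without the libraries that stood apart, 34 of the 53 astrocyte genes were lower and 9 higher, all 8 cortical genes were higher, and all 10 markers of spiny projection neurons were lower. None of these markers stood at 0 throughout a generation, and beyond the fit with the 6 marker scores, cortical included, their part in the members' differences was not tested.

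Labelled sex was compared next. Sox9 was the only member that differed, lower in libraries labelled female than in those labelled male by log2 -0.07 ± 0.020 SE (adjusted p = 0.0218), when 2.86% of all genes were called (1.55% higher and 1.3% lower). It spanned 19.9 to 48.7 CPM (median 34.6) in female-labelled libraries and 24.2 to 71.4 (median 36.7) in male-labelled ones, and 60.6% of female-labelled libraries lay below the male-labelled median. Without the 29 libraries whose Xist went against the label, Sox9 was still the single member called (log2 -0.07, adjusted p = 0.0194). Within generation 21, 22 or 23 alone the difference was log2 -0.05, -0.10 and -0.07 and was not called (adjusted p = 0.577, 0.468 and 0.291). Gja1 had a log2 difference of -0.04 that did not pass (adjusted p = 0.149), and the intervals of the other members lay within log2 -0.12 to 0.17. Whether the generation differences depended on labelled sex was tested with an interaction term, and no member was called. In edgeR's interaction test the smallest adjusted p was 0.691 (Slc1a2), no member had an unadjusted p under 0.05, and 0.322% of all genes were called. Among the 53 other astrocyte genes, Kcnj10 (log2 0.10, adjusted p = 0.0165) and Mertk (log2 0.08, adjusted p = 0.0145) were higher and Rfx4 (log2 -0.06, adjusted p = 0.0181) was lower in female-labelled libraries.

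How far the members rose and fell together from library to library was measured over the 416 libraries. The 45 pairs had a median Pearson r of 0.16 and a median Spearman rho of 0.169 in log2 CPM, with 37 pairs of positive r and 8 of negative r. Both coefficients passed an adjusted p of 0.05 in 30 pairs, 28 positive and 2 negative (two-sided permutation tests, 100000 permutations, adjusted over 45 pairs). Small coefficients pass with 416 libraries, among them Agt with Sox9 at rho = 0.112. Pairs of other genes were not counted in this way, so the 30 pairs have no background. Over all genes ranked further below, the median absolute rho of a member lay between 0.0612 (Slc1a3) and 0.139 (Aldh1l1). The median r squared was 2.69%, so the members shared little of their variance pair by pair. All genes of a library share its scaling and its tissue content. The median r kept its sign within each generation, at 0.206, 0.246 and 0.136 in generations 21, 22 and 23.

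The 4 pairs with r above 0.4 were Aldh1l1 with Aldoc, Gja1 with Agt, Gjb6 with Aldoc and Aldh1l1 with Agt. For these, and for both pairs with Sox9 described next, each permutation p was 1e-05, the smallest that 100000 permutations can give (adjusted 2.25e-05 for r and 2.81e-05 for rho). Aldh1l1 and Aldoc had r = 0.473 and rho = 0.427, r = 0.454 without the 2 libraries of most extreme Aldh1l1, and r of 0.537, 0.292 and 0.261 within generations 21, 22 and 23. Gja1 and Agt had r = 0.446 and rho = 0.397, r = 0.395 without the 2 extreme libraries, and r of 0.454, 0.322 and 0.384 within the generations. Gjb6 and Aldoc had r = 0.426 and rho = 0.324, with r = 0.357 without the extreme libraries and 0.542, 0.359 and 0.356 within generations. Aldh1l1 and Agt had r = 0.417 and rho = 0.316, with r = 0.383 without the extreme libraries and 0.481, 0.213 and 0.157 within generations. Without the libraries that stood apart, r was 0.423 for Aldh1l1 with Aldoc and 0.367 for Gja1 with Agt. It was 0.332 for Gjb6 with Aldoc and 0.308 for Aldh1l1 with Agt.

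Gja1 was positively related to Sox9 (r = 0.379, rho = 0.407, r = 0.401 without the 2 libraries of most extreme Gja1), with r of 0.292, 0.297 and 0.412 in generations 21, 22 and 23. Gjb6 was negatively related to it (r = -0.267, rho = -0.261, r = -0.26 without the 2 extreme libraries), with r of -0.26, -0.3 and -0.261. Gja1 and Gjb6 were themselves weakly positive with each other (r = 0.244, rho = 0.169, adjusted p = 2.25e-05 and 0.00118), with r = 0.177 without the 2 extreme libraries and 0.387, 0.246 and 0.0831 within generations. Slc1a2 and Agt were the second negative pair (r = -0.245, rho = -0.143, permutation p = 1e-05 and 0.00319, adjusted p = 2.25e-05 and 0.00532). That relation did not hold within every generation: r was -0.415 in generation 21, 0.127 in generation 22 and 0.0334 in generation 23.

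**Figure D3:**
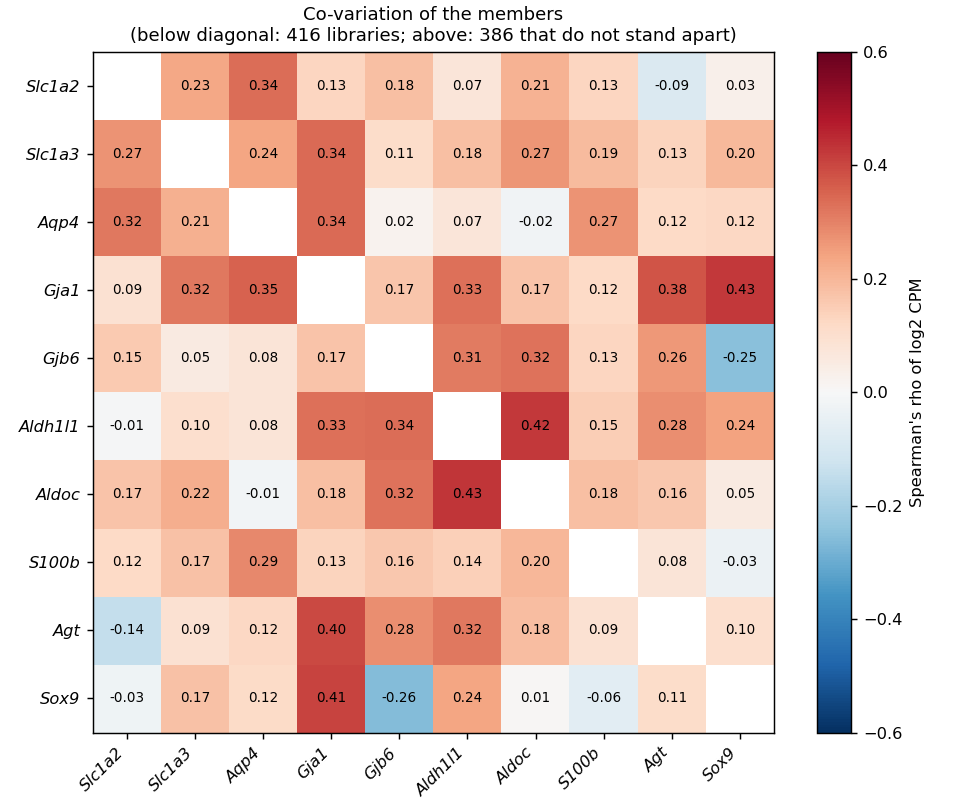
Spearman's rho of log2 CPM for each pair of members (rows and columns), over all 416 libraries below the diagonal and over those that did not stand apart above it. Red is positive and blue negative. Gja1 with Sox9 (0.41) and Aldh1l1 with Aldoc (0.43) are among the highest cells, and Gjb6 with Sox9 (-0.26) is the lowest.

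The members were then set against the mean log2 CPM of 15 marker lists of other cell types and states, 150 relations in all, adjusted together. Both coefficients passed an adjusted p of 0.05 in 78 of these relations, with both positive in 60 and both negative in 17. No such count was made for other genes, and the relations described are examples. Sox9 had the strongest ones. With the ependymal list it had r = 0.628 and rho = 0.655 (r = 0.621 without the 2 libraries of most extreme Sox9), and r of 0.72, 0.585 and 0.465 in generations 21, 22 and 23. With the list of the neurogenic niche, the stem cell zone beside the ventricle, it had r = 0.577 and rho = 0.612 (r = 0.58 without the extreme libraries), and 0.682, 0.552 and 0.443 within generations. With the list of neuronal genes it had r = -0.457 and rho = -0.471 (r = -0.455 without them), and -0.344, -0.459 and -0.443 within generations. Gjb6 ran against the neurogenic niche list (r = -0.438, rho = -0.385, r = -0.392 without the extreme libraries), with r of -0.49, -0.422 and -0.324. S100b went with the oligodendrocyte list (r = 0.35, rho = 0.383, r = 0.326 without the extreme libraries), with r of 0.422, 0.3 and 0.273. Aldh1l1 (r = 0.341, rho = 0.298, r = 0.335 without the extreme libraries) and Aqp4 (r = 0.319, rho = 0.312, r = 0.303 without them) had relations of similar size with that list, with r of 0.431, 0.36 and 0.139 within generations for Aldh1l1 and 0.316, 0.362 and 0.327 for Aqp4. For these 7 relations each permutation p was 1e-05, the smallest possible (adjusted 3.26e-05 for r and 4.69e-05 for rho). Others were of similar size, among them Aldoc with mural cells (r = 0.388, rho = 0.36). Gjb6 with spiny projection neurons had r = -0.429 but rho = -0.187, and r = -0.166 without the libraries that stood apart. With the oligodendrocyte list Aldoc (r = 0.291), Gja1 (0.263), Agt (0.261) and Gjb6 (0.245) were positive too, while Sox9 was not (-0.0327).

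Relations with the thalamic list rested in part on few libraries. Agt had r = 0.498 but rho = 0.204 with that list (permutation p = 1e-05 and 4e-05, adjusted p = 3.26e-05 and 0.000146). Its r was 0.365 without the 2 libraries of most extreme Agt and 0.248 without those that stood apart. Within generations it was 0.651, 0.252 and 0.258. Gjb6 had r = 0.512 and rho = 0.335 with the list (permutation p = 1e-05 for both, adjusted p = 3.26e-05 and 4.69e-05). Its r was 0.393 without the 2 extreme libraries, 0.281 without those that stood apart, and 0.701, 0.26 and 0.266 within generations.

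**Figure D4:**
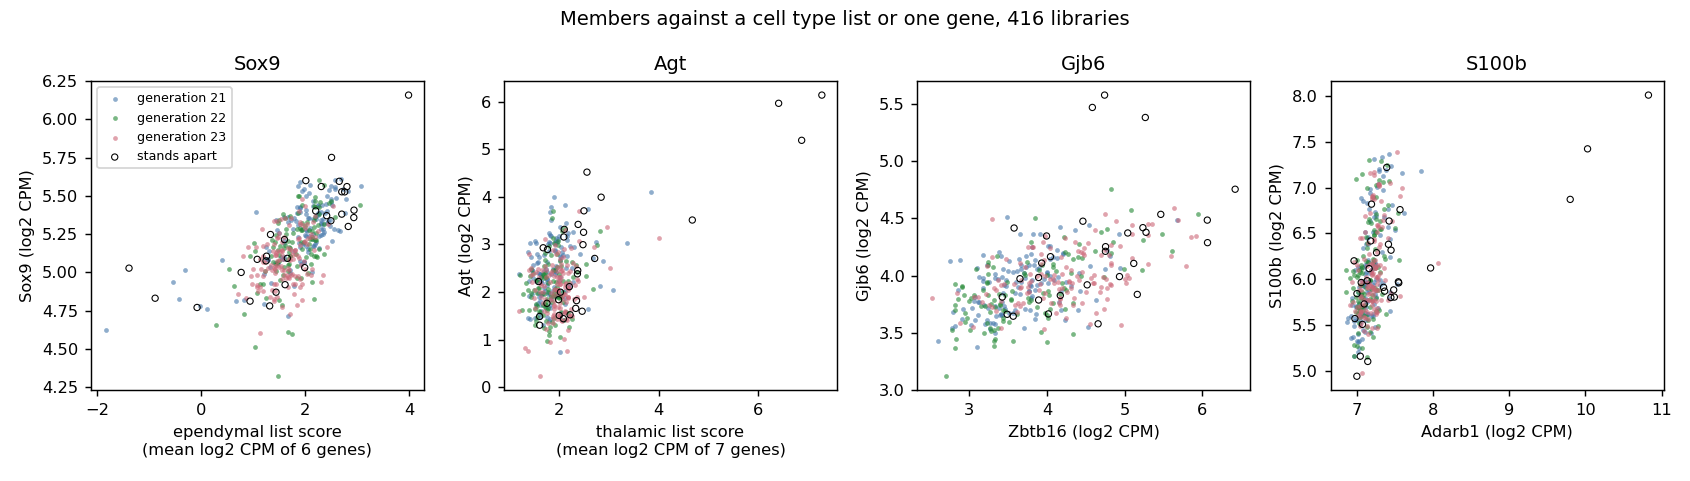
Log2 CPM of Sox9 against the ependymal list score, of Agt against the thalamic list score, of Gjb6 against Zbtb16 and of S100b against Adarb1, 1 point per library, coloured by generation, with open circles for the libraries that stood apart. Sox9 rises with its list through the whole cloud (rho = 0.655). For Agt, 3 open circles lie far out on the thalamic axis (rho = 0.204).

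For each member the 3 genes with the most similar pattern over 416 libraries were listed, by Spearman rho among the 14901 named genes that averaged 1 or more in log2 CPM. These values describe the ranking and carry no test. Sox9 had the closest ones: Celsr1 (rho = 0.714), Gm973 (0.711) and Ttc21a (0.662). Gja1 was closest to Plpp3 (0.58), Gna13 (0.57) and Phgdh (0.563), Aldh1l1 to Atp1b2 (0.574), Gpr37l1 (0.567) and Ndrg2 (0.531), and Gjb6 to Sparcl1 (0.561), Tsc22d3 (0.547) and Zbtb16 (0.528). Aqp4 was closest to Qk (0.503), Myo6 (0.49) and Sept2 (0.47), and Slc1a2 to Mfap3l (0.51), Prex2 (0.474) and Sh3glb1 (0.444). Agt was closest to Cd81 (0.493), Sparc (0.489) and Ndrg2 (0.46). Slc1a3 was closest to the overlapping Gm37310 (0.493), then S1pr1 (0.432) and Plpp3 (0.412). Ndrg2 thus appears for Aldh1l1, Agt and Aldoc, and Plpp3 for Gja1 and Slc1a3.

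Most of the 3 genes closest to S100b and to Aldoc lay on the member's own chromosome. For S100b, on chromosome 10, the 3 were Adarb1 (0.512), Ilvbl (0.457) and Plekhj1 (0.442), all on chromosome 10, and the gene with the lowest rho, Col6a2 (-0.569), lies there too, within 500 kb. For Aldoc, on chromosome 11, they were Vtn (0.583), Ndrg2 (0.554) and Vps53 (0.503), of which Vtn and Vps53 are on chromosome 11. Among the 50 genes of highest rho, 8 for S100b and 14 for Aldoc shared the member's chromosome, and among the 50 of lowest rho, 20 and 13 did. Chromosomes 10 and 11 hold 4.38% and 7.3% of the genes ranked. For Gjb6, on chromosome 14 (3.17% of the genes ranked), 7 of the 50 highest shared its chromosome, but 1 of the 50 lowest. For Gja1, also on chromosome 10, the counts were 1 and 1. Within 500 kb the median absolute rho of the neighbours was 0.172 for S100b (14 genes), 0.214 for Slc1a3 (7 genes) and 0.139 for Aldoc (32 genes), against 0.0772, 0.0612 and 0.11 over all genes ranked. The Slc1a3 neighbours include Gm37310 (rho = 0.493), which overlaps it on the same strand, and Cplane1 (-0.403), the gene of lowest rho with Slc1a3. Lmbrd2 and Skp2, also neighbours, stood at -0.214 each. For Slc1a2 and Gja1 the neighbours' median was also above that of all genes ranked (0.137 against 0.103, and 0.161 against 0.0842), and for Aqp4 it was close to it (0.0893 against 0.0854). It was below for Aldh1l1 (0.101 against 0.139), Agt (0.0578 against 0.103), Sox9 (0.0749 against 0.13) and Gjb6 (0.0983 against 0.112). The 50-gene lists and the 500 kb window were chosen after the data had been seen, and these counts carry no test. The founder genotypes of the animals were not used here.

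**Figure D5:**
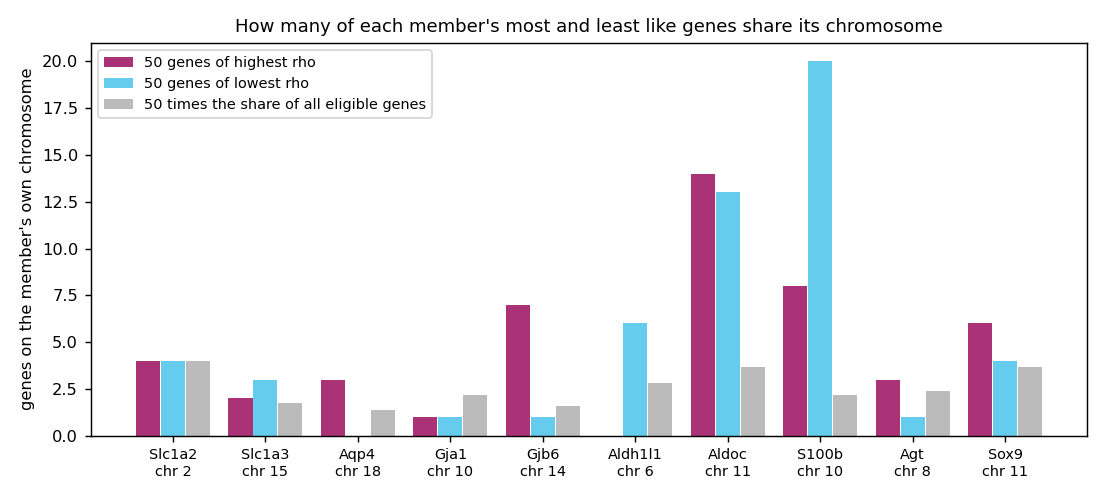
Number of genes on the member's own chromosome (y axis) among the 50 genes of highest rho and the 50 of lowest rho with it, for each member, beside 50 times the share of that chromosome in all genes ranked. S100b (8 and 20) and Aldoc (14 and 13) exceed that share on both sides, while Gja1 has 1 and 1.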

How the data were processed

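The deposited table holds estimated counts for 46517 Ensembl gene IDs in 416 libraries. Of the values, 23.8% were not whole. Per the labels' protocols, ribosomal RNA was depleted and libraries were made with a stranded kit and sequenced as read pairs. The aligner, counting tool, build and annotation the authors used are not given in the sources used here. Names, exon lengths and overlaps came from GENCODE M21 by ID (98.9% matched). Counts were rounded (0.00502% of the total moved), filtered with filterByExpr (minimum count 10), scaled with TMM and tested with edgeR 4.0.16 (quasi-likelihood, robust, sex and generation as terms; R 4.3.3). Log2 CPM carry a prior count of 2. Libraries stood apart with a total under 0.5 of the median or a median correlation over 4 scaled MAD (1.4826) below the median. Xist was judged at 100 CPM. All 416 columns were mapped to their labels by title.

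The members and gene lists were chosen with earlier results of these data known. The genes named are the members, up to 3 called genes per list with the smallest p, up to 3 not called with the highest level, and the 3 genes most like each member. A few others are marked in the text as named after their values were seen. Alternatives were RLE factors, other filters, DESeq2 1.42.0, limma 3.58.1 voom, covariates, subsets and single libraries left out. The 2 alternatives of the interaction test, the list counts without the libraries that stood apart, the 50-gene lists and the 500 kb window were chosen after seeing the data. The fit was tested on simulated data. One result that the naming rule selects is not reported here.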

Additional observations from a re-analysis of the deposited data

How the results depend on the processing

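In generation 23 minus 21 the count of members called was 5 to 8 under all alternatives, against 6, and in generation 22 minus 21 it was 5 to 8, against 7. Agt, Sox9, Aldh1l1 and Aldoc kept sign and call in generation 23 minus 21 under each of 21 alternatives. The count in generation 23 minus 22 (1, Sox9) moved to 2 with limma voom, without the libraries that stood apart, without those whose Xist went against the label, and with total count and mitochondrial share as covariates, each time by adding Gjb6. It moved to 0 in female-labelled or male-labelled libraries alone and with the 6 marker scores. The count for sex (1) was 0 in each generation alone and 2 with the marker scores, which added Gja1. Leaving out 1 of the 10 most influential libraries gave 6 to 7, 7 to 8, 1 to 2 and 1 to 1 calls. The interaction count stayed at 0 in both alternatives, which were chosen after seeing the data. Of the alternative values of single members, 814 kept their side of the threshold, 15 lost a call and 21 gained one. A reversal was a change of sign with a call in the main or the alternative fit, and 0 occurred. Changes of sign without a call were counted among the 814, as for Agt in female minus male (log2 -0.14 to 0.21). The median r was 0.128 to 0.246. Over all genes, the share called fell to 34.9%, 26.6%, 9.23% and 1.72% with no filter on low counts, which adds genes of few counts to those tested (generation 23 minus 21, 22 minus 21, 23 minus 22 and sex). For generation 23 minus 22 it was 4.08% and 4.57% in female-labelled and male-labelled libraries alone and 6.22% with the marker scores, and for generation 22 minus 21 it was 28.6% in male-labelled libraries. For sex it was 0.289%, 0.243% and 0.528% within generations, 5.68% without the libraries that stood apart, 4.75% without those whose Xist went against the label and 6.83% with the marker scores. The cause was not tested for any of these. No paired analysis was possible because the labels give no replicate numbers. Depth limits Agt most (lowest count 42).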

Other observations

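Genes of reactive astrocytes were measured beside the resting ones. In generation 23 against generation 21, 4 of 8 tested were lower and 2 higher, when 32.6% of all genes were called lower and 25.8% higher. Without the libraries that stood apart the counts were the same, but the median moved from log2 -0.14 to -0.04. The intermediate filament genes Gfap (log2 -0.29 ± 0.066 SE, edgeR adjusted p = 5.54e-05) and Vim (log2 -0.20, adjusted p = 4.53e-09) and the protease inhibitor gene Serpina3n (log2 -0.58, adjusted p = 0.000101) were lower. Osmr, the oncostatin M receptor (log2 0.19, adjusted p = 6.97e-07), and Timp1 (log2 0.18, adjusted p = 0.000404) were higher; Serpina3n and Timp1 were named after their values were seen. Cd44 was not called.

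General neuronal genes split in generation 23 against generation 21. Of 5, Snap25 (log2 0.32, edgeR adjusted p = 2.72e-22), Syt1 (log2 0.22, adjusted p = 8.23e-17) and Stmn2 were higher, and Tubb3 (log2 -0.14, adjusted p = 8.2e-11) and Rbfox3 were lower. Stmn2 and Rbfox3 were named after their values were seen. Of 6 microglial genes, 5 were lower and P2ry12, a purinergic receptor gene of resting microglia, was higher (log2 0.11, adjusted p = 0.000167).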
